A study of Mus musculus with 4 samples.

Results

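The genes described here encode cytochromes P450 of families Cyp2, Cyp4, Cyp7, Cyp24, Cyp27 and Cyp51 and UDP-glycosyltransferases of families Ugt1, Ugt2 and Ugt3. Every symbol starting with one of these names and holding at least 50 unique molecular identifiers (UMIs, counted RNA molecules) over the 4 libraries was taken, which gave 50 genes of the 27998 in the tables. Another 54 matching genes stayed under that minimum, and 23 of those held 0 UMIs. Cyp20a1, a P450 with no settled substrate, entered through the letters Cyp2. Kidney cells of male C57BL/6 mice aged 6-8 weeks were profiled by droplet single-cell RNA sequencing after intraperitoneal glyoxylate on 0, 1, 4 or 7 successive days, a model of calcium oxalate nephropathy. The groups are called D0, D1, D4 and D7, each is 1 library, and the labels do not say how many animals each library holds. Values between days therefore have no replicate check, no p-value is given for them, and all intervals on levels and ratios cover counting error only.

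Cytochromes P450 are membrane-bound haem enzymes that insert oxygen into fatty acids, sterols, vitamin D and foreign compounds. Glucuronosyltransferases, here families Ugt1 and Ugt2, attach sugar acids to such products, bilirubin and steroids, which makes them soluble for excretion. This description does not cover family Ugt3. In the kidney most of these enzymes act in the proximal tubule, where Cyp4a and Cyp2j enzymes convert arachidonic acid and Cyp27b1 and Cyp24a1 make and degrade active vitamin D.

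The libraries held 12730 to 16427 barcodes and 85009491 to 99337001 UMIs. The shallowest barcode had 500 UMIs at D0 and D1, 2919 at D4 and 2773 at D7. Pairs of libraries shared 50 to 81 barcodes, at most 0.537% of either. Proximal tubule cells were those with at least 2 UMIs of Lrp2 plus Slc34a1, none of Ptprc and at most 50% mitochondrial UMIs. There were 11751, 7635, 15040 and 12625 of them at D0, D1, D4 and D7. Their organic anion transporter Slc22a6 stood at 588, 494, 527 and 501 CPM (a gene's share of the gate's UMIs, scaled as counts-per-million). Median mitochondrial shares were 16.6%, 11.1%, 16.9% and 18.0%. Markers of other cells were also read in this gate. The macrophage gene Lyz2 stood at 6.85, 19.3, 20.5 and 42.2 CPM, and the T cell gene Cd3e at 0.238 to 0.520 CPM, while Ptprc is 0 by the gate. The thick ascending limb gene Umod stood at 72.1, 75.3, 86.3 and 122 CPM and Slc12a1 at 9.63, 7.55, 7.72 and 12.5 CPM, and the distal gene Slc12a3 at 35.6, 23.3, 17.0 and 20.4 CPM. Their part in the day results was not tested.

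A pair of Cyp2a genes and a pair of Ugt2b genes differed between segments or days. The bases upstream of their starts nearly match and are shown. Of the 50 genes, 35 have an entry in RefSeq's promoter table for GRCm38.p6. Each line gives 210 bases, from 250 to 41 bases before the RefSeq start, read 5′ to 3′ on the gene's strand. Capitals mark bases not aligned to the same base in the partner. Cyp2a4 (chr7:26306942-26307151, plus strand) and Cyp2a5 (chr7:26835089-26835298, plus strand) were identical at 205 of 209 aligned bases (98.1%).
Cyp2a4: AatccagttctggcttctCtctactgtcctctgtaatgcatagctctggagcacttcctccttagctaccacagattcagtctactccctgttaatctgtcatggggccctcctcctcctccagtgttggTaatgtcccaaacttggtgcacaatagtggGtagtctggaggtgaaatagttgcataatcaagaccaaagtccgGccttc
Cyp2a5: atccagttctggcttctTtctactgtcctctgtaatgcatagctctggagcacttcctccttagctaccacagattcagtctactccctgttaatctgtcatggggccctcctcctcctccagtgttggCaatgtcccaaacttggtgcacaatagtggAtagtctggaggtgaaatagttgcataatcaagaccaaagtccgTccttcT
Ugt2b38 (chr5:87424244-87424453, minus strand) and Ugt2b37 (chr5:87254829-87255038, minus strand) were identical at 186 of 196 aligned bases (94.9%), and most capitals near the ends are bases with no partner in the other window.
Ugt2b38: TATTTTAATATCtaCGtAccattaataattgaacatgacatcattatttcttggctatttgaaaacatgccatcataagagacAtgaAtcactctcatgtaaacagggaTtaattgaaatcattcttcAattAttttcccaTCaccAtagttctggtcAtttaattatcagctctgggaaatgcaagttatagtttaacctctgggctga
Ugt2b37: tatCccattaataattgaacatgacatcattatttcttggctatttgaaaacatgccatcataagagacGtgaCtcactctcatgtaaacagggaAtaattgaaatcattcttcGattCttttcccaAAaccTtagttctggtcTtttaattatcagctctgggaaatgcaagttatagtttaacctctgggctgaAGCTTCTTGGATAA

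Together the 50 genes made up 0.468%, 0.370%, 0.428% and 0.393% of proximal tubule UMIs at D0, D1, D4 and D7. A few genes carried most of this. Cyp4b1, a hydroxylase of fatty acids and small foreign compounds, was the most abundant, at 1346, 938, 1076 and 854 CPM. Ugt2b38, a glucuronosyltransferase of a steroid-handling subfamily, followed at 835, 616, 553 and 570.1 CPM. Cyp2e1, which oxidises ethanol and ketones, stood at 486, 411, 537 and 488 CPM. Cyp2j5, an arachidonic acid epoxygenase of the mouse kidney, stood at 485, 404, 464 and 429 CPM. These 4 genes supplied 67.4%, 63.9%, 61.4% and 59.6% of the summed level. Ugt3a2 stood at 231, 196, 218 and 192 CPM, Ugt2b37 at 174, 161, 123 and 149 CPM, and Ugt3a1 at 146, 117, 143 and 148 CPM. In all, 8 genes were at or above 100 CPM in every library and 11 were under 1 CPM in every library. CPM counts 3′ ends, so it orders molecules without correction for gene length.

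**Figure D1:**
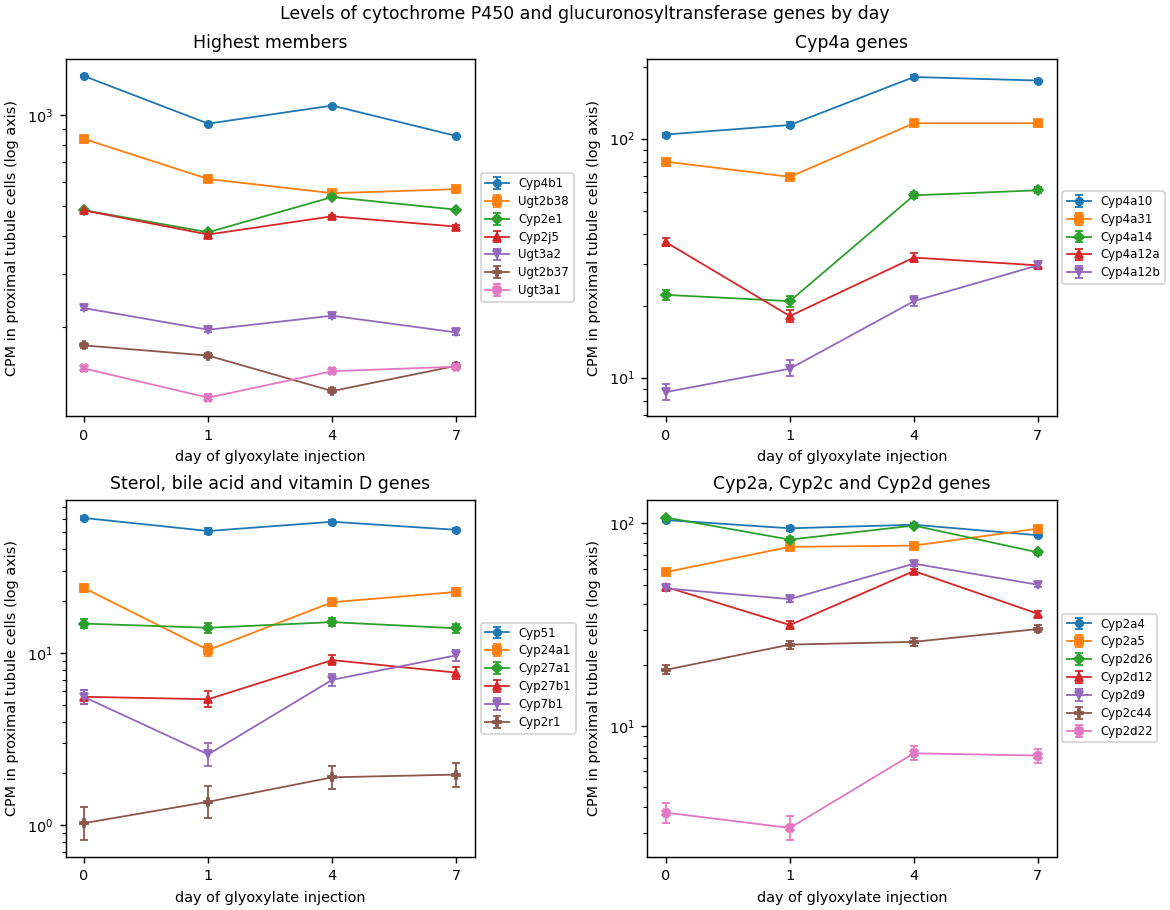
CPM in proximal tubule cells (log axis) against the day of injection, 1 library per day, with 95% Poisson intervals that cover counting error only. The D4 and D7 points of Cyp4a10, Cyp4a14 and Cyp4a31 lie above their D0 and D1 points, and Cyp24a1, Cyp4a12a and Cyp7b1 are lowest at D1.

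A gene was counted as higher or lower on a later day when its CPM plus 1 differed at least 1.5-fold from D0 and the pair held at least 50 UMIs. At D1, 0 of the 45 genes tested were higher, against 1.62% of all genes tested, and 4 were lower, against 0.717%. At D4, 5 of 46 were higher, against 4.49% of all genes, and 1 was lower, against 1.01%. At D7, 8 of 45 were higher, against 7.24%, and 2 were lower, against 1.62%. The median log2 ratio to D0 over the genes described was -0.17 at D1, 0.02 at D4 and -0.05 at D7, and over all genes tested it was 0.08, 0.02 and 0.06. At D4 against D1, 10 of 46 genes were higher, against 4.13% of all genes, and 0 were lower, against 2.12%. Between D7 and D4, 0 of 48 were higher, against 1.37%, and 1 was lower, against 0.364%. The sum over all 50 genes had a D7 to D0 ratio of 0.840 (95% interval 0.836 to 0.844). The 5 genes left out at D7 for low counts were Ugt1a5, Cyp2j7, Cyp4x1, Cyp4f17 and Cyp2c68.

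**Figure D2:**
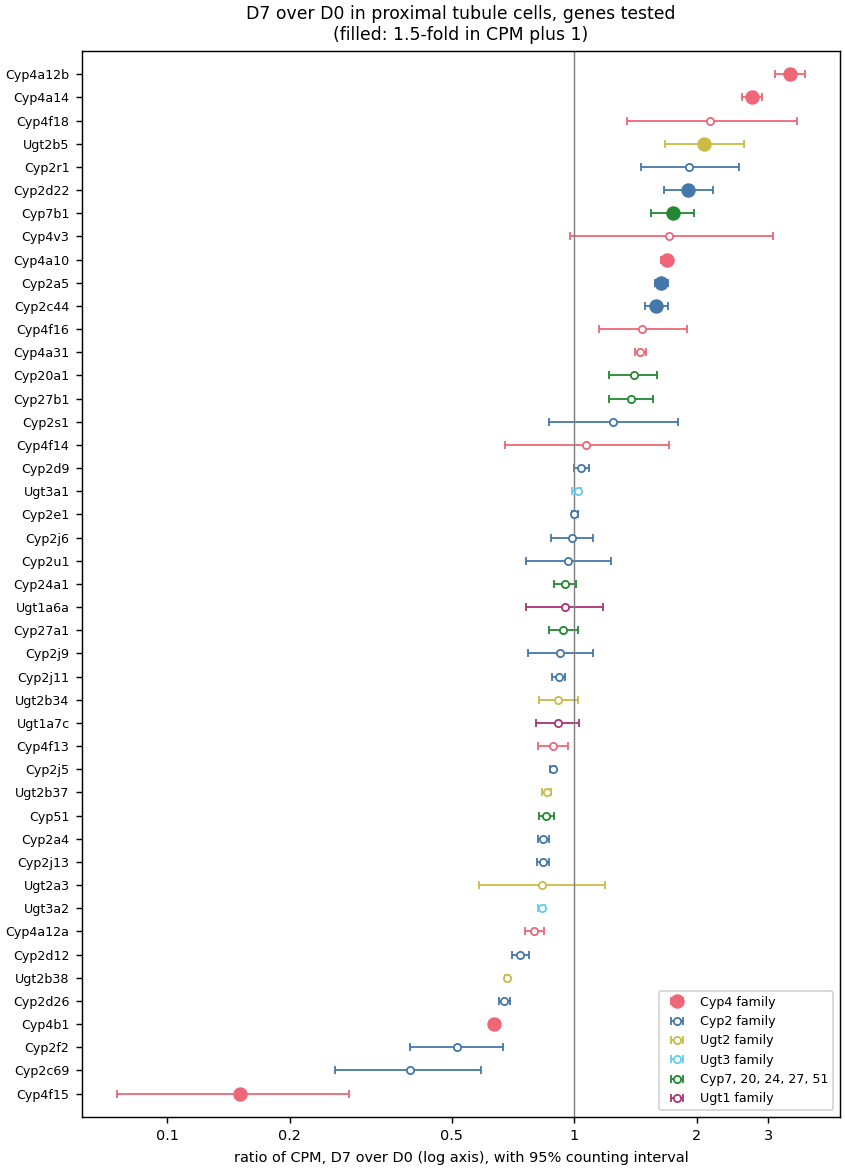
Ratio of CPM at D7 over D0 (log axis) for the 45 genes tested, with 95% counting intervals; filled symbols pass 1.5-fold in CPM plus 1. Cyp4a12b and Cyp4a14 lie at the top and Cyp4f15 and Cyp2c69 at the bottom.

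Among the fatty acid hydroxylases of the Cyp4a group, Cyp4a10, Cyp4a12b and Cyp4a14 were higher at D4 and D7, and Cyp4a31 and Cyp4a12a stayed inside the bound. All 5 measured Cyp4a genes lie in a cluster on chromosome 4, from Cyp4a12a at chr4:115299046-115332815 to Cyp4a31 at chr4:115563649-115579015 (GRCm38, GENCODE annotation). Cyp4a14 stood at 22.2, 20.9, 57.9 and 60.8 CPM at D0, D1, D4 and D7. Its D0 and D1 levels were close, and D4 and D7 lay well above both, with a D7 to D0 ratio of 2.74 (2.59 to 2.89). Cyp4a10 stood at 104, 114, 181 and 175 CPM, a D7 to D0 ratio of 1.69 (1.64 to 1.74). Cyp4a31 stood at 80.1, 69.2, 116 and 116 CPM, and its D7 to D0 ratio of 1.45 (1.41 to 1.5) stayed inside the 1.5-fold bound. Cyp4a12b stood at 8.70, 10.9, 20.9 and 29.5 CPM, and Cyp4a12a at 36.9, 18.1, 31.8 and 29.5 CPM, a D7 to D0 ratio of 0.799 (0.757 to 0.844). These near-identical genes share 3′ sequence, so reads could be split between them: 69.8% of the 90-base words in the last 500 bases of each were unique. Their sum stood at 45.6, 29.1, 52.7 and 59.1 CPM, a D7 to D0 ratio of 1.29 (1.24 to 1.35). The summed level of the 5 genes was 252, 234, 408 and 411 CPM, a D7 to D0 ratio of 1.63 (1.61 to 1.66).

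The Cyp4a levels were also read within each segment gate. In cells with at least 2 UMIs of Slc5a2 plus Slc5a12, transporters of the convoluted part, Cyp4a14 stood at 8.00, 7.57, 28.8 and 29.5 CPM. In cells with at least 3 UMIs of Slc7a13, a transporter of the straight part, it stood at 35.3, 35.7, 83.7 and 95.3 CPM. The D7 to D0 ratio was 3.68 (3.15 to 4.33) in the Slc5a gate and 2.70 (2.53 to 2.89) in the Slc7a13 gate. Cyp4a10 had D7 to D0 ratios of 2.16 (2.01 to 2.33) and 1.73 (1.67 to 1.79) in these gates. In the small gate of cells with at least 2 UMIs of Serpina1d plus Serpina1f, the ratio was 1.84 (1.45 to 2.35) for Cyp4a14 and 1.02 (0.927 to 1.13) for Cyp4a10. After thinning each cell to 1000 UMIs, 2.13%, 2.15%, 4.95% and 5.04% of proximal tubule cells had a Cyp4a14 UMI at D0, D1, D4 and D7. Unthinned, the shares were 10.5%, 11.1%, 21.1% and 21%. In thinned leukocytes the shares were 0%, 0.602%, 1.03% and 0%, where 0 of 447 cells at D0 allows up to 0.671% and 0 of 304 at D7 up to 0.987%. Thinning left out 482 proximal tubule cells at D0 and 430 at D1 and none at D4 and D7. Median depths before thinning were 5679, 6976, 5014 and 5685 UMIs in proximal tubule cells and 2149, 3056, 3603 and 3671 in leukocytes.

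Of the other Cyp4 genes tested, Cyp4b1 and Cyp4f15 were lower at D7, and Cyp4f13, Cyp4f14, Cyp4f16, Cyp4f18 and Cyp4v3 stayed inside the bound. Cyp4b1, which neighbours the Cyp4a cluster at chr4:115624725-115647723, had a D7 to D0 ratio of 0.634 (0.628 to 0.640). It was 0.736 (0.720 to 0.753) in the Slc5a gate, 0.635 (0.627 to 0.643) in the Slc7a13 gate and 0.601 (0.550 to 0.656) in the Serpina1 gate. Cyp4f15, whose 12 UMIs at D7 stand against 77 at D0, had a ratio of 0.151 (0.0750 to 0.280). Cyp4f13 stood at 14.7, 11.5, 14.3 and 13.0 CPM and stayed inside the bound on every day. Cyp4f18, Cyp4f16 and Cyp4v3 were below 2 CPM in proximal tubule cells, and their levels in leukocytes are given further on.

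Cyp2 genes that act on steroids and foreign compounds also parted. Cyp2a5, which hydroxylates coumarin and nicotine, stood at 57.6, 76.7, 77.8 and 94.3 CPM, a D7 to D0 ratio of 1.64 (1.58 to 1.70). Cyp2a4, a steroid hydroxylase on the same chromosome, stood at 104, 94.7, 98.6 and 87.5 CPM, a ratio of 0.839 (0.813 to 0.866). So Cyp2a4 was the higher of the pair at D0 and Cyp2a5 at D7, and their sum had a D7 to D0 ratio of 1.12 (1.10 to 1.15). In their last 500 bases 89.5% of words were unique to Cyp2a4 and 89.9% to Cyp2a5. Cyp2c44, an epoxygenase that the GENCODE annotation calls Cyp2c23, stood at 19.0, 25.3, 26.1 and 30.2 CPM, a ratio of 1.59 (1.49 to 1.70). Cyp2d22 stood at 3.76, 3.16, 7.37 and 7.18 CPM, a D7 to D0 ratio of 1.91 (1.66 to 2.20). Cyp2d12 alternated, at 48.7, 31.6, 58.3 and 35.9 CPM, and was the 1 gene lower at D7 than at D4. Cyp2d26 stood at 107, 83.3, 97.7 and 72.0 CPM, a D7 to D0 ratio of 0.674 (0.652 to 0.697) that did not pass in CPM plus 1. Cyp2e1 had a D7 to D0 ratio of 1.00 (0.990 to 1.02).

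Of the vitamin D enzymes, Cyp24a1 moved at D1 and Cyp27b1 at D4. Cyp24a1, which inactivates vitamin D, stood at 23.8, 10.4, 19.7 and 22.6 CPM. Its level at D1 was below all the others, with a D1 to D0 ratio of 0.436 (0.398 to 0.476), while the D7 to D0 ratio was 0.951 (0.892 to 1.01). The D1 to D0 ratio of Cyp24a1 was 0.390 in the Slc5a gate and 0.525 in the Slc7a13 gate. Cyp27b1, which makes the active hormone, stood at 5.57, 5.39, 9.09 and 7.69 CPM, with ratios of 1.63 (1.45 to 1.84) at D4 and 1.38 (1.22 to 1.56) at D7 over D0. Cyp2r1, which performs the preceding hydroxylation, stood at 1.03, 1.37, 1.90 and 1.97 CPM and did not pass in CPM plus 1. Of the 12 vitamin D and phosphate genes tested, 1 was higher at D7, S100g, a calcium-binding protein, with a ratio of 1.87 (1.81 to 1.92). Another 1 was lower, the phosphate transporter Slc34a3, with a ratio of 0.608 (0.573 to 0.644). The list's median log2 ratio at D7 was -0.10, against 0.06 over all genes. The vitamin D receptor gene Vdr had a D7 to D0 ratio of 0.733 (0.705 to 0.762) and stayed inside the bound, as did Calb1 at 1.39 (1.30 to 1.5).

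Of the sterol enzymes, Cyp51 and Cyp27a1 stayed inside the bound on every day, while Cyp7b1 was lower at D1 and higher at D7. Cyp51, the lanosterol demethylase of cholesterol synthesis, stood at 60.7, 51, 57.7 and 51.8 CPM, a D7 to D0 ratio of 0.854 (0.819 to 0.890). Of the 20 genes on the sterol synthesis list, 7 were higher at D4 and 4 at D7, and 0 were lower on either day. Of all genes, 4.49% were higher at D4 and 7.24% at D7, and 1.01% and 1.62% were lower. Among those higher at D7 was Sqle, squalene epoxidase, with a ratio of 2.73 (2.58 to 2.89). The list's median log2 ratio was 0.38 at D7, against 0.06 over all genes. Cyp27a1, the mitochondrial sterol hydroxylase, stood at 14.8, 14.0, 15.1 and 13.9 CPM. Cyp7b1, an oxysterol hydroxylase, stood at 5.55, 2.58, 6.99 and 9.69 CPM. It was lowest at D1 and highest at D7, with a D1 to D0 ratio of 0.466 (0.387 to 0.558) and a D7 to D0 ratio of 1.75 (1.55 to 1.97).

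Cyp7b1 was concentrated in few cells. Cells of the Serpina1 gate held 79.7%, 81.3%, 88.3% and 93.0% of its proximal tubule UMIs at D0, D1, D4 and D7, against 1.95%, 1.02%, 3.05% and 3.75% of all UMIs. This gate was 1.15%, 0.602%, 2.29% and 2.58% of proximal tubule cells on those days. Within it Cyp7b1 stood at 227, 205, 202 and 240.4 CPM, a D7 to D0 ratio of 1.06 (0.933 to 1.21). Outside it the level was 1.15, 0.488, 0.842 and 0.708 CPM. The part of the gate's share of cells in the day values of Cyp7b1 was not tested.

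Conjugating enzymes of the Ugt2 family were lower on the later days as a sum. The 5 Ugt2 genes summed to 1020.2, 786, 687 and 731 CPM at D0, D1, D4 and D7. Ugt2b38 carried most of this and had ratios to D0 of 0.663 (0.655 to 0.670) at D4, where it passed, and 0.683 (0.675 to 0.691) at D7, where it did not. In the Slc7a13 gate its D7 to D0 ratio was 0.599 (0.589 to 0.610) and in the Slc5a gate 0.862 (0.843 to 0.881). Ugt2b5, at 1.47, 1.84, 2.33 and 3.06 CPM, was the 1 Ugt gene higher at D7, with a ratio of 2.09 (1.67 to 2.62). Ugt2b34 stood at 8.53, 7.18, 6.95 and 7.80 CPM. The Ugt3 genes summed to 377, 313, 362 and 341 CPM. The Ugt1a genes, which handle bilirubin and phenols, share their 3′ exons. For Ugt1a5 and Ugt1a6a 0% of end words were unique and for Ugt1a7c 56.9%, so which of them a read came from is uncertain. Together they stood at 8.98, 8.24, 10.1 and 8.18 CPM. Ugt1a7c held most of that, at 6.5, 6.29, 7.32 and 5.93 CPM.

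Of 19 genes for P450 partners and other conjugating or oxidising enzymes, 1 was higher and 1 lower at D7, where 7.24% of all genes were higher and 1.62% lower with a median of 0.06. Ephx1, microsomal epoxide hydrolase, had a ratio of 3.47 (2.69 to 4.51) on 282 UMIs at D7 against 79 at D0, and Fmo2, a flavin monooxygenase, one of 0.614 (0.600 to 0.629). The list's median log2 ratio at D7 was -0.03. Of 18 receptors and transcription factors tested, 1 was higher, Cebpb at 2.36 (2.28 to 2.44), and 1 lower, Hnf4g at 0.611 (0.553 to 0.675), with a median of 0.05. Of 17 known targets of the fatty acid receptor PPAR alpha outside the genes described, 4 were higher at D7, against the 7.24% of all genes, and 0 lower, with a median of 0.32. They included Pdk4, a brake on glucose oxidation, at 2.35 (2.21 to 2.5), and Acot1, an acyl-CoA thioesterase, at 1.53 (1.49 to 1.58). Of the other P450 families only Cyp3a13 and Cyp39a1 reached the minimum at D7, with ratios of 3.04 (1.70 to 5.71) and 1.37 (0.961 to 1.97), and neither passed.

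Segments were compared between cells that passed a single gate, summed per library. There were 12116 cells of the Slc5a gate, 11306 of the Slc7a13 gate and 173 of the Serpina1 gate over the 4 libraries. edgeR's quasi-likelihood test with a term for the library was fitted to all genes, with Benjamini-Hochberg adjustment, and a call needed an adjusted p under 0.05 and 1.5-fold. The 4 libraries served as replicates although they come from different days. Of 46 genes tested, 24 were higher in Slc7a13 cells than in Slc5a cells, against 9.88% of all genes, and 10 were lower, against 12.3%. The median log2 fold change was 0.69 over the genes described and -0.02 over all genes. Of these 34 genes, 33 lay on the side of the call in all 4 libraries, Cyp7b1 in 3. The same libraries gave the calls, so this is not a separate check, and it was not counted over all genes called. Cyp4f17, Cyp4x1, Cyp4v3 and Ugt1a5 were not tested for low counts.

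The genes with the highest fold changes in Slc7a13 cells were Cyp2a4, Cyp2d9, Cyp2a5 and Ugt2b37. Cyp2a4 stood at 179, 177, 154 and 139 CPM in Slc7a13 cells at D0, D1, D4 and D7, against 9.31, 6.60, 22.5 and 13.9 CPM in Slc5a cells. The log2 fold change was 3.85 ± 0.22 (SE; edgeR adjusted p = 2.36e-11). Cyp2d9, a male-predominant testosterone hydroxylase, stood at 83.8, 79.7, 111 and 87.9 CPM against 5.91, 4.14, 16.2 and 9.28 CPM. Its log2 fold change was 3.59 ± 0.17. Cyp2a5 stood at 104, 146, 138 and 175 CPM in Slc7a13 cells and 16.1, 12.5, 25.6 and 27.5 CPM in Slc5a cells, a log2 fold change of 2.99 ± 0.12. Ugt2b37 stood at 316, 298, 208 and 244 CPM in Slc7a13 cells and 29.3, 30.5, 48.8 and 67.6 CPM in Slc5a cells, a log2 fold change of 2.81 ± 0.23. The groups did not overlap for any of these 4 genes, but the genes were picked by fold change, and overlap was not counted over all genes. Ugt2b38, whose upstream bases nearly match those of Ugt2b37, had a log2 fold change of 0.72 ± 0.12. Without the D1 library it was 0.57 and no longer a call.

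Of the genes for fatty acid enzymes, Cyp4a14, Cyp4a10 and Cyp4b1 were also higher in Slc7a13 cells, Cyp2u1 was lower, at -1.26 ± 0.19, and Cyp4a12b, at 0.25 ± 0.09, was not a call. Cyp4a14 had a log2 fold change of 2.45 ± 0.13 and Cyp4a10 of 2.24 ± 0.13 in Slc7a13 over Slc5a cells. Cyp4b1 stood at 2113, 1569, 1543 and 1381 CPM in Slc7a13 cells and 624, 409, 653 and 473 CPM in Slc5a cells, a log2 fold change of 1.81 ± 0.10. Cyp2e1 had one of 1.87 ± 0.13, Cyp51 of 1.51 ± 0.15 and Ugt3a1 of 1.51 ± 0.12.

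Of the vitamin D hydroxylases, Cyp27b1 and Cyp24a1 were lower in Slc7a13 than in Slc5a cells, and Cyp2r1 was higher, by 0.78 ± 0.20 on the log2 scale, a call lost without the D1 library (0.60 ± 0.24). Cyp27b1 stood at 0.930, 0.280, 1.87 and 1.4 CPM in Slc7a13 cells, against 14.9, 15.8, 26.3 and 20.6 CPM in Slc5a cells. Its log2 fold change was -3.94 ± 0.16 (edgeR adjusted p = 2.48e-13). Cyp24a1 stood at 9.72, 5.55, 11.3 and 8.11 CPM against 48.7, 19.0, 42.6 and 50.9 CPM, a log2 fold change of -2.0 ± 0.13. The groups did not overlap for either gene, and overlap was not counted over all genes. Ugt2b34 had the lowest value, -5.09 ± 0.18, at 0.353, 0.280, 0.911 and 0.988 CPM in Slc7a13 cells and 26.0, 24.1, 21.8 and 23.7 CPM in Slc5a cells. Cyp2d26 stood at 16.3, 13.7, 30.9 and 25.7 CPM in Slc7a13 cells and 295, 255, 236 and 169 CPM in Slc5a cells, a log2 fold change of -3.30 ± 0.19. Cyp2c68 rested on 2 UMIs in Slc7a13 cells and 49 in Slc5a cells, a ratio of CPM of 0.0312 (counting interval 0.00367 to 0.119), and was under the count filter without any single library. For scale, the gating gene Slc5a2 itself stood at 11.3, 5.59, 15.8 and 13.0 CPM in Slc7a13 cells, against 596, 477, 445 and 423 CPM in Slc5a cells.

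**Figure D3:**
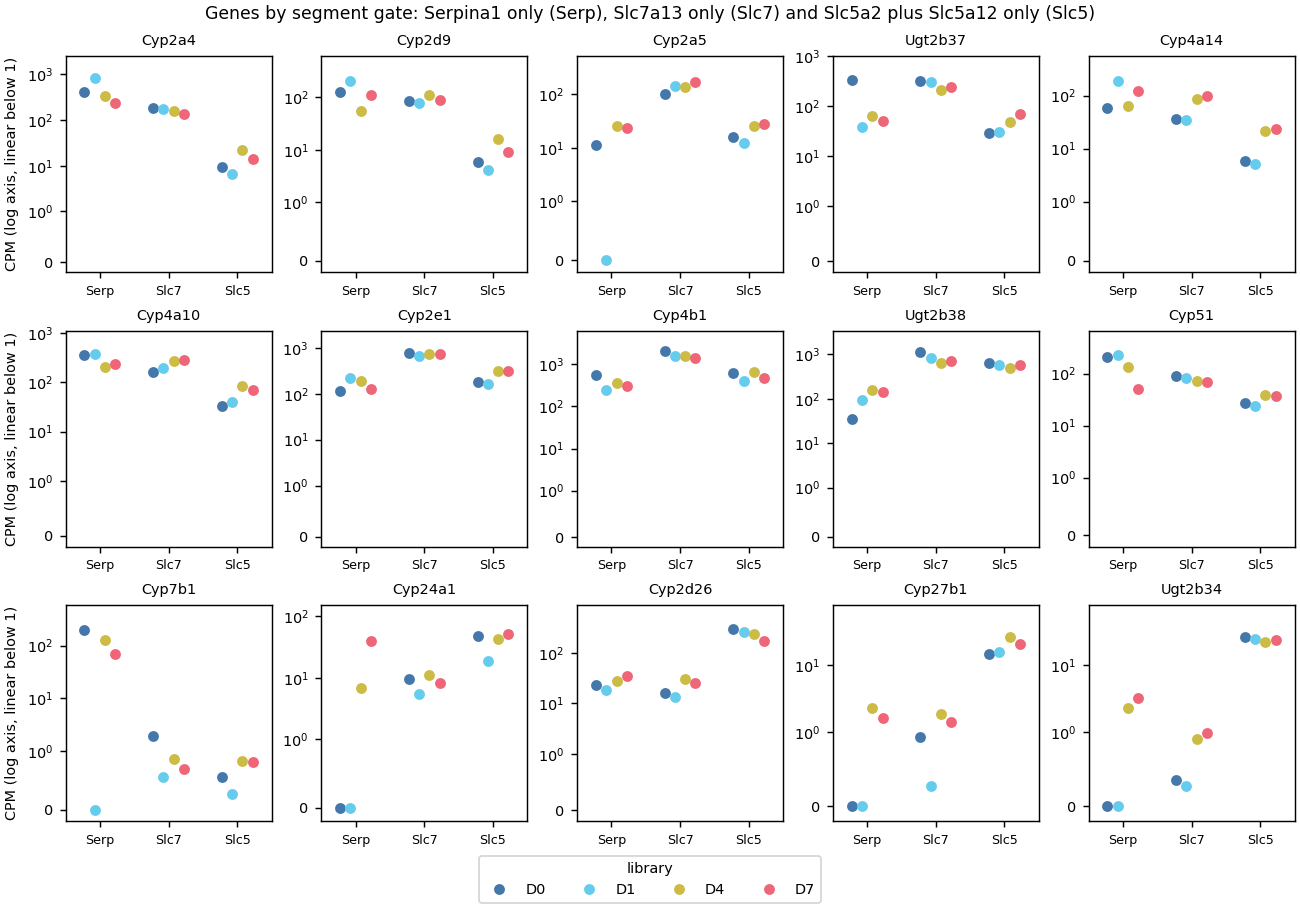
CPM (log axis, linear below 1) in cells of a single segment gate, 1 point per library, for 15 genes. Cyp2a4 to Cyp51 lie higher in Slc7a13 than in Slc5a cells, Cyp24a1, Cyp2d26, Cyp27b1 and Ugt2b34 lie lower, and Cyp7b1 is high in Serpina1 cells except in the D1 library.

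Serpina1 cells of a single gate were few, with 15, 8, 74 and 76 of them at D0, D1, D4 and D7, and 649 of the 852 cells of the whole gate also passed the Slc7a13 gate. Against Slc5a cells, 12 of 46 genes were higher, against 6.87% of all genes, and 6 were lower, against 6.16%. The median was -0.53 over the genes described and -0.09 over all genes. Against Slc7a13 cells, 2 were higher, against 3.80%, and 8 lower, against 4.38%, with medians of -0.31 and -0.12. With DESeq2 the medians over the genes described turned to 0.53 over Slc5a cells and 0.25 over Slc7a13 cells, against 0.02 and 0.13 over all genes. The direction held in all 4 libraries for 15 of the 18 genes called over Slc5a cells. It did so for 7 of the 10 called over Slc7a13 cells, again in the libraries that gave the calls. The exceptions were Cyp7b1, Cyp2s1 and Cyp2j6 over Slc5a cells, and Cyp7b1, Cyp2s1 and Ugt2b37 over Slc7a13 cells. Cyp7b1 had 17, 0, 55 and 43 UMIs in Serpina1 cells, which is 196, 0, 126 and 68.7 CPM, against 1.89, 0.559, 0.865 and 0.700 CPM in Slc7a13 cells. Its log2 fold change was 6.45 ± 0.34 over Slc7a13 cells and 7.34 ± 0.36 over Slc5a cells. It was high in 3 libraries, and no UMI was seen in the 8 cells at D1.

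Cyp2a4 and Cyp2a5, whose upstream bases nearly match, parted in these cells. Cyp2a4 stood at 415, 838, 329.9 and 235 CPM in Serpina1 cells, above its level in both other gates in every library, with a log2 fold change of 4.72 ± 0.33 over Slc5a cells. Over Slc7a13 cells it was 0.88 ± 0.29 and did not pass (edgeR adjusted p = 0.0648). Cyp2a5 stood at 11.5, 0, 25.2 and 24 CPM there, on 27 UMIs in all. Its log2 fold change was -3.01 ± 0.31 in Serpina1 over Slc7a13 cells (edgeR adjusted p = 1.33e-06), and 0.162 as a ratio of CPM (0.107 to 0.236). The difference between Cyp2a4 and Cyp2a5 in this contrast was not tested. Cyp4b1, Cyp2e1, Ugt2b37 and Ugt2b38 were also lower in Serpina1 than in Slc7a13 cells, with log2 fold changes of -2.34 ± 0.13, -2.50 ± 0.21, -1.98 ± 0.43 and -2.66 ± 0.20. At D0, Ugt2b37 lay on the other side, at 334 CPM in Serpina1 cells, against 316 CPM in Slc7a13 cells. Cyp2d9 was higher than in Slc5a cells, by 3.39 ± 0.39. Cyp27b1, Ugt2b34, Cyp2d26 and Cyp2d12 were lower than in Slc5a cells, by -3.69 ± 0.74, -3.21 ± 0.70, -2.93 ± 0.43 and -2.90 ± 0.37. The value of Cyp27b1 rests on 2 UMIs in Serpina1 cells (ratio of CPM 0.0850, counting interval 0.0103 to 0.307) and that of Ugt2b34 on 3 (0.104, 0.0215 to 0.305). Cyp2s1 was called higher than in both other gates on 6 UMIs, and the calls were lost without the D4 library (log2 2.14 and 2.70) and without the D7 library (2.90 and 3.43).

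Havcr1 encodes a surface protein that injured proximal tubule cells carry. Cells with at least 1 Havcr1 UMI numbered 8, 108, 460 and 580 at D0, D1, D4 and D7. They were compared with Havcr1-negative cells of the same library at D1, D4 and D7, by the same edgeR test with a term for the library. Of 49 genes tested, 5 were higher in Havcr1-positive cells, against 5.77% of all genes, and 5 were lower, against 3.31%. The median log2 fold change was -0.10 over the genes described and -0.02 over all genes. Cyp2c68 was under the count filter.

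Among the genes lower in Havcr1-positive cells, Cyp27b1 and Cyp2d26 had the largest changes. Cyp27b1 stood at 1.59, 3.43 and 2.04 CPM in Havcr1-positive cells at D1, D4 and D7, against 5.46, 9.32 and 8.05 CPM in Havcr1-negative cells. In Havcr1-positive cells it held 2, 11 and 10 UMIs, and the counting interval of its D1 ratio was 0.0350 to 1.06. The log2 fold change was -1.78 ± 0.27 (edgeR adjusted p = 1.94e-05, 3 libraries). Within the Slc5a gate alone it was -1.85 ± 0.41, and within the Slc7a13 gate, where the gene is scarce, 0.40 ± 1.09. Cyp2d26 stood at 36.5, 48.4 and 34.8 CPM in Havcr1-positive cells and 84.2, 99.7 and 74.3 CPM in Havcr1-negative cells, a log2 fold change of -1.16 ± 0.09. Cyp2d12 had one of -0.91 ± 0.12, Ugt2b34 of -0.79 ± 0.23 and Cyp2j13 of -0.64 ± 0.10. Ugt2b34 held 3, 12 and 29 UMIs in Havcr1-positive cells at D1, D4 and D7. All 5 genes were lower in Havcr1-positive cells in each of the 3 libraries, which also gave the calls. The calls of Ugt2b34 and Cyp2j13 were lost without the D4 library, where the log2 fold changes were -0.73 and -0.49. At D1, D4 and D7, 17 of 108, 85 of 460 and 113 of 580 Havcr1-positive cells passed the Slc5a gate. That gate held 24.5%, 28.5% and 29.9% of all proximal tubule cells on those days. The part of this segment mix in the fold changes was not tested.

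Cyp7b1 was the gene most in favour of Havcr1-positive cells, at 60.3, 53.7 and 38.6 CPM against 1.43, 5.15 and 7.86 CPM in Havcr1-negative cells. Its log2 fold change was 3.29 ± 0.28 (edgeR adjusted p = 3.30e-09). The Serpina1 gate held 165 of the 1156 Havcr1-positive cells of the 4 libraries. Without cells of that gate the log2 fold change was 1.42 ± 0.59 (edgeR adjusted p = 0.114) and no longer a call. Cyp2a4 stood at 180.2, 164 and 119 CPM in Havcr1-positive cells, against 93.0, 96.0 and 85.5 CPM. Its log2 fold change was 0.65 ± 0.09 with all cells and 0.27 ± 0.10 without the Serpina1 gate (edgeR adjusted p = 0.0582). Without the D1 library it was 0.57, under 1.5-fold. Cyp2s1, on 22 UMIs, Cyp20a1 and Cyp2j6 had log2 fold changes of 1.54 ± 0.53, 0.65 ± 0.20 and 0.61 ± 0.20. At D1, Cyp2s1 and Cyp2j6 lay on the other side, with 0 and 4.76 CPM in Havcr1-positive cells, against 0.667 and 5.62 CPM in Havcr1-negative cells. All 3 of these calls were lost without the D4 library (1.52, 0.67 and 0.57) and without the D7 library (0.88, 0.67 and 0.43).

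**Figure D4:**
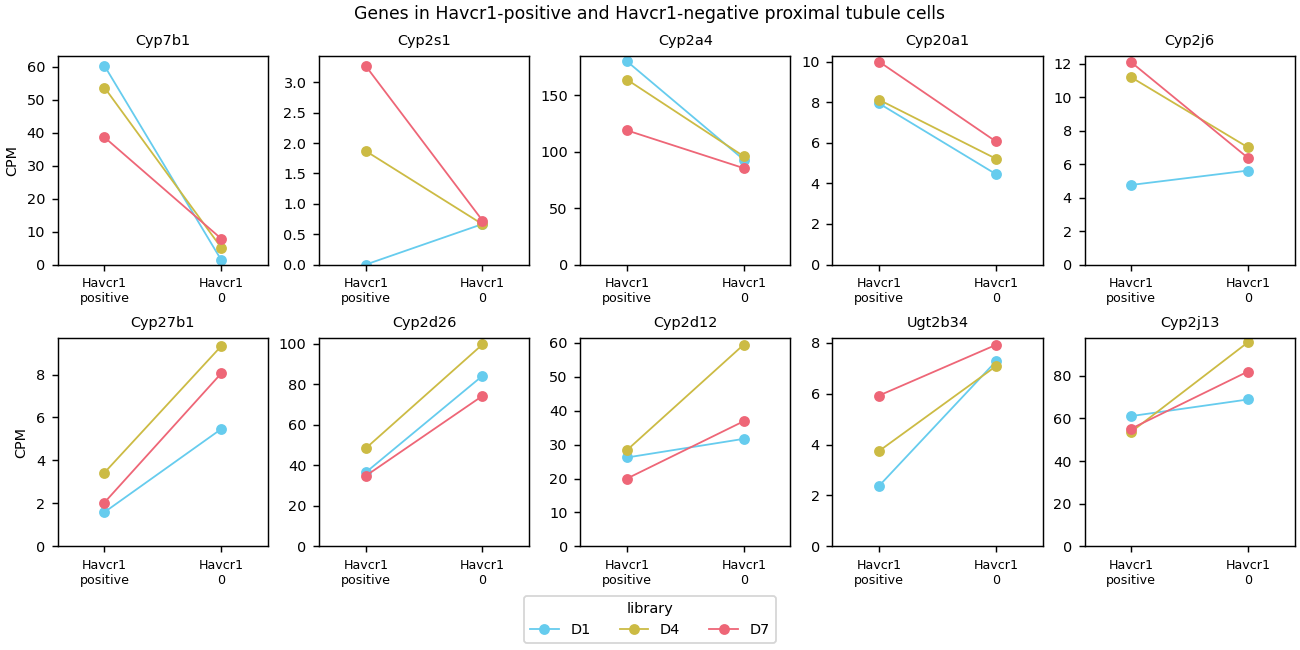
CPM in Havcr1-positive and Havcr1-negative proximal tubule cells of the same library (lines join the 2 values of a library) for the 10 genes called. Cyp7b1 lies higher and Cyp27b1, Cyp2d26 and Cyp2d12 lie lower in Havcr1-positive cells in all 3 libraries.

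Outside the proximal tubule, 9 of the 50 genes had a higher level in at least 1 other gate, judged by a counting interval of the ratio above 1. The same count was not made over all genes, so whether 9 is many is not known. These gates held 1778 leukocytes, 419 thick ascending limb cells, 127 distal convoluted tubule cells and 151 intercalated cells. Proximal tubule markers were present there at a median of 4.59% to 5.61% of their proximal tubule level. Some genes that did not exceed their proximal tubule level stood well above that share: Cyp51 was at 33.4 CPM in leukocytes, against 55.5 CPM in proximal tubule cells, which is 60.1% of that level, and at 28.2% to 37.9% in the 3 tubule gates. Cyp4f18, a leukotriene hydroxylase of neutrophils, stood at 79.3, 90.3, 69.2 and 132 CPM in leukocytes at D0, D1, D4 and D7, against 0.338, 0.498, 0.497 and 0.730 CPM in proximal tubule cells. Over the 4 libraries the ratio was 184 (155 to 221). Its D7 to D0 ratio in proximal tubule cells, 2.16 (1.35 to 3.54), moved together with Lyz2 in that gate, and the part of leukocyte RNA in it was not tested. Cyp4f16 stood at 23.1 CPM in leukocytes and 1.51 in proximal tubule cells, and Cyp4v3 at 8.95 and 0.354. Cyp4f16 and Cyp4v3 also exceeded their proximal tubule level in the 3 other tubule gates, on 3 to 9 UMIs each. Cyp20a1 stood at 13.7 and 5.21 CPM, and at 15.7 CPM in thick ascending limb cells, and Cyp27a1 at 19.5 and 14.5 CPM.

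Tubule cells beyond the proximal part held a different group. Cyp2j6 stood at 86.1 CPM in distal convoluted cells, 46.5 in thick ascending limb cells and 32.9 in intercalated cells, against 6.63 CPM in proximal tubule cells. Cyp2s1 stood at 28.2, 13.9 and 9.57 CPM in intercalated, thick ascending limb and distal convoluted cells, against 0.740 CPM in proximal tubule cells. Cyp2u1, a fatty acid hydroxylase, stood at 23.5, 16.8 and 19.1 CPM in those gates, against 1.84 CPM. Cyp2j11 stood at 101 CPM in distal convoluted cells, against 67.6 CPM in proximal tubule cells, a ratio of 1.5 (1.12 to 1.96). By day its level in distal convoluted cells was 180.4, 71.2, 65.7 and 35.9 CPM, on 33, 13, 3 and 4 UMIs, and it exceeded the proximal tubule level of 70.4, 66.7, 68.6 and 64.5 CPM by a wide margin at D0 only. Cyp2j5, the abundant member of the same family, was not above its proximal tubule level in any of the 4 gates.

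**Figure D5:**
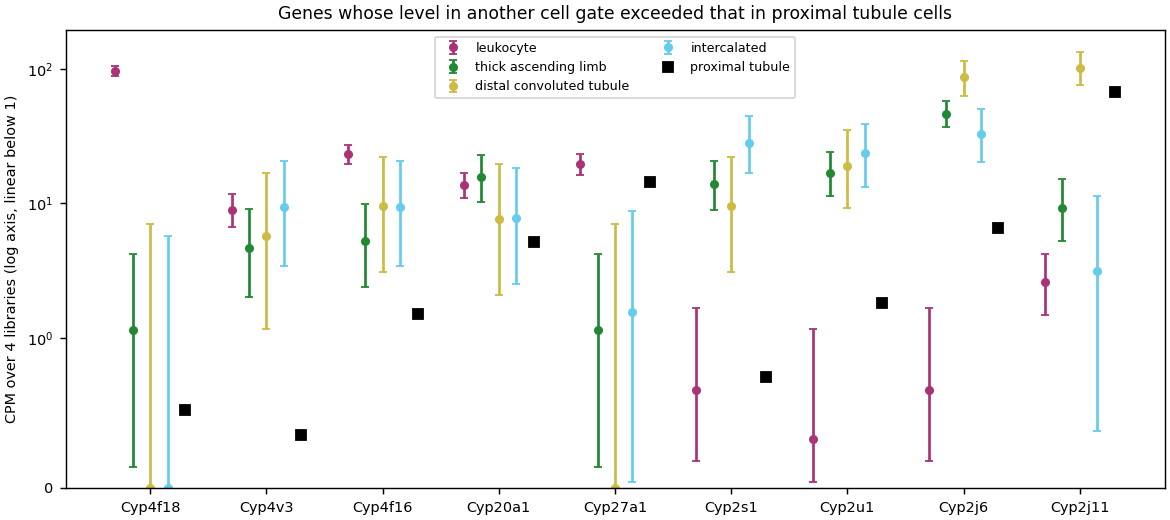
CPM summed over the 4 libraries (log axis, linear below 1) in 4 other cell gates and in proximal tubule cells (black squares) for the 9 genes above their proximal tubule level elsewhere, with 95% Poisson intervals. Cyp4f18 is high in leukocytes, and Cyp2s1, Cyp2u1 and Cyp2j6 are high in the other tubule gates.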

How the data were processed

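Each of the 4 libraries, 1 per day of glyoxylate, was deposited as a matrix of raw UMI counts per gene and barcode, made by the authors with Cell Ranger 3.1.0 on mm10 per the submitters' processing notes. The gene annotation release is not given in the sources used here. The matrix headers name software version 3.0.1. Counts were summed per library and cell gate and divided by the gate's total (CPM). Depth ran from 85009491 to 99337001 UMIs per library. Day comparisons used the ratio of CPM plus 1 with exact Poisson intervals (95%). Segment and Havcr1 comparisons used edgeR 4.0.16 quasi-likelihood tests on gate sums, with trimmed mean of M-values scaling, a library term and Benjamini-Hochberg adjustment over all genes, so its fold changes need not equal ratios of CPM. DESeq2 1.42.0 was an alternative. The edgeR test and the day ratios were tested on simulated data, and DESeq2 was not. The simulated day counts were Poisson draws and those for edgeR had a fixed spread, so neither covers variation between animals. Nothing says that libraries came from separate animals. The p-values therefore measure how far the difference within a library varied between libraries of different days, 4 for segments and 3 for Havcr1.

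Doublets were kept in the main results, and an alternative removed the 10.636% to 13.453% of barcodes with the highest Scrublet scores (scanpy 1.11.5), because the automatic threshold marked 0 to 15794 barcodes. Other alternatives changed the mitochondrial limit, depth, gate, scaling, pseudocount, filter and library term, and left out each library. Gene positions and end-sequence uniqueness came from GENCODE on GRCm38 and upstream sequences from RefSeq's GRCm38.p6 table, aligned with Biopython 1.88. Named genes were the 8 highest by CPM, the 5 highest and 5 lowest at D7 (D0 and D7 together holding 100 UMIs or more, and either reaching 5 CPM), fixed vitamin D, sterol, Cyp2e1 and Ugt1a genes, the 4 highest and 4 lowest called per contrast, those above the proximal tubule elsewhere and up to 3 per list. Other genes named were chosen after their values were seen. The genes and lists were chosen with earlier results of these data known. An endothelial gate of 18 cells was not used. A few genes of the lists that met the rule for named genes are not reported here.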

Additional observations from a re-analysis of the deposited data

Results flagged for a closer look

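Within the Slc5a and the Slc7a13 gate, 16 pairs of a gene and a day had ratios to D0 whose counting intervals lay on opposite sides of 1. Here the gates were not exclusive, and 1115 cells over the 4 libraries passed both. Each day is 1 library and the difference between the gates was not tested. The same count was not made over all genes, so whether 16 pairs are many is not known.

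Steroid and foreign compound enzymes made up the first group. The D4 to D0 ratio of Cyp2a4 was 1.82 (1.64 to 2.03) in the Slc5a gate and 0.916 (0.883 to 0.951) in the Slc7a13 gate, and at D7 it was 1.39 (1.24 to 1.56) and 0.861 (0.830 to 0.893). For Cyp2e1 these ratios were 1.49 (1.44 to 1.54) and 0.917 (0.900 to 0.935) at D4, and 1.47 (1.42 to 1.52) and 0.908 (0.891 to 0.924) at D7. Cyp2d26, which stands higher in Slc5a cells, lay the other way, at 0.820 (0.791 to 0.850) and 1.67 (1.53 to 1.82) at D4, and 0.580 (0.557 to 0.604) and 1.25 (1.14 to 1.37) at D7.

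Ugt2b37 had ratios of 1.25 (1.16 to 1.35) in the Slc5a gate and 0.639 (0.618 to 0.661) in the Slc7a13 gate at D4, and 1.64 (1.52 to 1.76) and 0.745 (0.723 to 0.769) at D7. Ugt3a1 had 1.21 (1.14 to 1.28) and 0.912 (0.881 to 0.945) at D4, and 1.32 (1.25 to 1.4) and 0.958 (0.926 to 0.991) at D7. Cyp51 had 1.37 (1.25 to 1.51) and 0.863 (0.818 to 0.910) at D4, and 1.24 (1.13 to 1.37) and 0.785 (0.745 to 0.828) at D7.

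Another 4 genes showed this at D4 only. Cyp2j13 had 1.18 (1.10 to 1.26) in the Slc5a gate and 0.842 (0.804 to 0.881) in the Slc7a13 gate. Cyp2j11 had 1.15 (1.05 to 1.26) and 0.916 (0.871 to 0.962). Cyp24a1 had 0.888 (0.813 to 0.969) and 1.19 (1.02 to 1.38), and Ugt2b34 had 0.855 (0.757 to 0.967) and 1.86 (1.22 to 2.86). In the Slc7a13 gate Ugt2b34 held 40 UMIs at D0 and 56 at D4, of which cells of that gate alone held 11 and 20. Segment markers moved in these gates too. In cells of the Slc5a gate alone, Slc7a13 stood at 28.1, 17.8, 49.1 and 40.4 CPM at D0, D1, D4 and D7, Kap, an androgen-regulated gene high in Slc7a13 cells, at 10454, 6992, 16441 and 11478 CPM, Slc5a2 at 596, 477, 445 and 423 CPM, and Slc5a12 at 353, 318, 334 and 313 CPM. In cells of the Slc7a13 gate alone, Slc5a12 stood at 2.63, 1.68, 5.78 and 4.32 CPM and Slc5a2 at 11.3, 5.59, 15.8 and 13.0 CPM. Their part in these ratios was not tested.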

How the results depend on the processing

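No paired analysis was possible because the groups hold 1 library each and share only the number 1. Counts of genes past the day threshold moved as follows. For D4 lower, the count was 1 of 46 in the main setting (128 of 12733 over all genes). It was 0 of 45 with at most 25% mitochondrial UMIs (136 of 12480) and without Havcr1-positive cells (126 of 12686). It was 0 of 40 within the Slc5a gate (70 of 11113). Without mitochondrial UMIs in the scaling it was 0 of 46 (136 over all genes), as with cells weighted equally (164). Within the Slc7a13 gate it was 2 of 38 (131 of 11041), and within the Serpina1 gate 3 of 23 (397 of 5686). For D7 lower, 2 of 45 (207 of 12781 over all genes), it was 1 of 44 with a 5-UMI gate (188 of 12519). With a pseudocount of 10 it was 1 of 45 (69 over all genes), and with TMM scaling 5 of 45 (276). Without mitochondrial UMIs in the scaling it was 4 of 45 (212), as with equal weighting (241). Within the Serpina1 gate it was 4 of 23 (284 of 6220). For D4 higher, 5 of 46 (572 of 12733 over all genes), it was 9 of 40 within the Slc5a gate (476 of 11113). Within the Slc7a13 gate it was 8 of 38 (571 of 11041), and with the pseudocount of 10 it was 3 of 46 (139 of 12733). For D7 higher, 8 of 45 (925 of 12781 over all genes), it was 5 of 45 with equal weighting (724). With the pseudocount of 10 it was 4 of 45 (251), and within the Serpina1 gate 3 of 23 (952 of 6220). At D1, 0 of 45 were higher and 4 lower (201 and 89 of 12421 over all genes). With the pseudocount of 10, 2 of 45 were lower (29 of 12421). Within the Serpina1 gate, 3 of 16 were higher and 0 lower (272 and 162 of 3878). Within that gate Ugt2b38 and Cyp4a10 reversed at D4, with log2 ratios of 0.49 and -0.15.

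For segments, 6 of 46 genes were lower in Serpina1 than in Slc5a cells. With cells in several gates kept Serpina1 first, it was 14 of 47. Over all genes the counts were 782 of 12695 and 1581 of 12818. On the higher side, 12 became 17, and over all genes 872 became 1507. In Serpina1 over Slc7a13 cells, 2 were higher, against 483 of 12695 over all genes. There were 5 with DESeq2 (817 of 12695), 5 with no filter (627 of 18416) and 9 with Serpina1 first (801 of 12818). When each library was left out there were 1 to 4 (203 to 513 over all genes). DESeq2 moved the median of all genes from -0.02 to -0.15 in Slc7a13 over Slc5a cells and from -0.12 to 0.13 in Serpina1 over Slc7a13 cells. For Havcr1, 5 were higher, and 2 with DESeq2, 1 without the library term, 3 from 2 UMIs of Havcr1, 1 without the Serpina1 gate, 1 within either other gate, and 2 to 4 when each library was left out. Of 5 lower, there were 2 without the library term, 8 from 2 UMIs, 3 within the Slc5a gate, 1 within the Slc7a13 gate, and 4 to 6 when each library was left out. Over all genes tested, 769 of 13321 were higher and 441 lower by Havcr1. There were 387 and 179 without the library term, and 928 and 843 of 13295 from 2 UMIs. Without the Serpina1 gate 634 of 13279 were higher, and with DESeq2 609 of 12288. Within the Slc5a gate there were 186 and 104 of 11445, and within the Slc7a13 gate 131 and 46 of 11296. Leaving out each library gave 537 to 848 higher and 326 to 462 lower. Cyp27b1 reversed within the Slc7a13 gate, to 0.40. The cause of these moves was not tested. Leaving out Havcr1-positive cells and the Serpina1 gate was chosen after seeing the data. So were the order with Serpina1 first and the Havcr1 tests within the Slc5a or the Slc7a13 gate alone. Of single-gene day values, 550 stayed within the counting error of the main value and 272 moved further. Reversal was counted only for day values past the threshold in the main setting, and 2 of those reversed. Changes of direction among the other day values were not counted. Of tested values, 709 kept their call, 80 lost it and 1 reversed.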
